A study of Mus musculus with 12 samples.

Results

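The insulin-like growth factor (IGF) genes and those of their circulating carriers were followed across lung and liver of pregnant and virgin mice. The 10 genes were the ligands Igf1 and Igf2, the receptor Igf1r, the binding proteins Igfbp1 to Igfbp6, and Igfals, the acid-labile subunit. A probe set was taken where the platform annotation gave it 1 gene symbol and that symbol was one of these genes. This rule, which used no measured value, found 25 of the 45037 probe sets measured, of which 34945 had 1 symbol. Igfbp4 had 6 probe sets, Igf1r 5, Igf1 4, and Igf2, Igfbp3 and Igfbp5 had 2 each, while Igfbp1, Igfbp2, Igfbp6 and Igfals had 1 each. All 25 stayed in the tests, since no filter on low values was used.

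The series held 4 groups of 3 one-colour Affymetrix arrays: pregnant liver, virgin liver, pregnant lung and virgin lung. All were from female NOD/SCID mice, an immunodeficient strain without mature T and B cells, that were 8 to 10 weeks old when the experiments began. Pregnant mice were taken at day 16 of gestation, timed by the vaginal plug, and virgin mice were the controls. Each array measured RNA pooled from 2 mice, so p-values measure the spread between pools, and the labels do not say whether lung and liver of 1 pool came from the same mice. Values are log2 expression values on the deposited scale, where a difference of 1 is a doubling of signal. Levels of different probe sets are not comparable with each other, and only the same probe set is compared between groups.

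IGF1 and IGF2 are peptide hormones that promote growth through the IGF1 receptor, a tyrosine kinase. Liver is the main source of circulating IGF1, where growth hormone drives its transcription, and in mice Igf2 is an imprinted gene that is active before birth and largely silent in the adult liver. The binding proteins carry the ligands in blood and tissue and set how much of them is free, and the acid-labile subunit joins IGF and IGFBP3 or IGFBP5 in a large complex that stays in the circulation. IGFBP1 is a liver protein whose gene is repressed by insulin.

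Promoter sequence is shown for a pair of liver secretory genes of the family that gave different results, Igfbp1, which rose in pregnant liver, and Igfals, for which no change was called. The sequences are those of RefSeq on GRCm38.p6, 250 bases before an annotated start, and all 10 genes had such an entry, with 16 windows in all. Igfbp1 is shown for chr11:7197537-7197786 on the plus strand and Igfals for the window chr17:24877981-24878230 on the plus strand, 1 of its 3. Capitals mark matches to either of the motifs searched on both strands.
Igfbp1: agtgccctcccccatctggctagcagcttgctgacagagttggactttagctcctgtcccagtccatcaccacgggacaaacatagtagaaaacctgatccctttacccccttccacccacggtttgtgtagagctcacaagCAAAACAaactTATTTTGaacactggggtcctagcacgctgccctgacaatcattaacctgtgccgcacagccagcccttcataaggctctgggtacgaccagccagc
Igfals: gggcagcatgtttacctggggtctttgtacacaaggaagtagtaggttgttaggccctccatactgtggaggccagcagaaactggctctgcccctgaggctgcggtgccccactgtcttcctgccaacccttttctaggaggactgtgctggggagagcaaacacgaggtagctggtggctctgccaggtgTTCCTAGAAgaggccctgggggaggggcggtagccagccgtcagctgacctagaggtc
The first motif, CAAAANA, is the core letters of the insulin response element. Igfbp1 held it 108 bases before the start as CAAAACA and, on the other strand, 97 bases before it as TATTTTG. It was in 1 of the 16 windows of the family and in 16.9% of the 32851 windows of this length. The second, TTCNNNGAA, is the core of STAT sites, and Igfals held it 58 bases before this start as TTCCTAGAA and 236 bases before another start as TTCTCAGAA. It was in 2 of the 16 windows and in 7.02% of all. No window of Igf1 or Igf2 held either motif. A match describes the letters only.

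The arrays of each group correlated with each other at 0.9917 to 0.9961 over all probe sets, and lung with liver arrays at 0.8403 to 0.8528. The added poly-A control RNA gave a mean level of 11.93 to 12.41 on 10 arrays, but of 5.197 and 4.986 on the arrays of pregnant and virgin liver pools 3. Liver differences were therefore also taken within pools 1 and 2 and within pool 3, and these values are given for the genes named below where the sign or the call differed, or where a called change was over 1.5 times as large in one as in the other. The median level of all probe sets over the 12 arrays was 4.53. The files give no detection calls, so a probe set below that level is not shown to be above background.

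In pregnant liver, 9 of the 25 probe sets were called (adjusted p under 0.05, limma), which is 36% of them against 8.16% of all probe sets tested. Of these 7 rose and 2 fell, against 3.7% and 4.46% of all, and 16 did not pass. The probe sets that rose belonged to Igf2, Igfbp1, Igfbp2 and Igfbp4, and those that fell to Igf1. Pregnant and virgin pools did not overlap for 16 of the 25, against 22.6% of all probe sets. In pregnant lung, 2 of 25 were called, or 8% against 0.213% of all, both for Igf1 and both lower. Probe sets called lower made up 0.115% of all. Lung pools of the states did not overlap for 12 of the 25, against 15.6% of all probe sets. The lung change minus the liver change was called for 8 of 25, or 32% against 3.42% of all, with 3 higher and 5 lower, against 1.7% and 1.73% of all. The median change over the 25 probe sets was 0.11 in liver and -0.05 in lung, beside 0.00137 and -0.00431 over all probe sets. With each gene taken by its probe set of highest mean level, 3 of 10 genes were called in liver, all of them higher. By that probe set Igf1 (-0.42, adjusted p = 0.078) and Igfbp4 (0.28, adjusted p = 0.0864) did not pass in liver, though other probe sets of theirs did. Of all genes 11.1% were called there, 4.92% higher and 6.22% lower. In lung 0 of 10 genes were called, against 0.33% of all genes. There 2 of the 10 had an unadjusted p under 0.05 in limma, a threshold at which the share of all genes was not counted. The Igf1 probe set of highest mean level did not pass in lung (adjusted p = 0.102), where 2 others of Igf1 did.

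**Figure D1:**
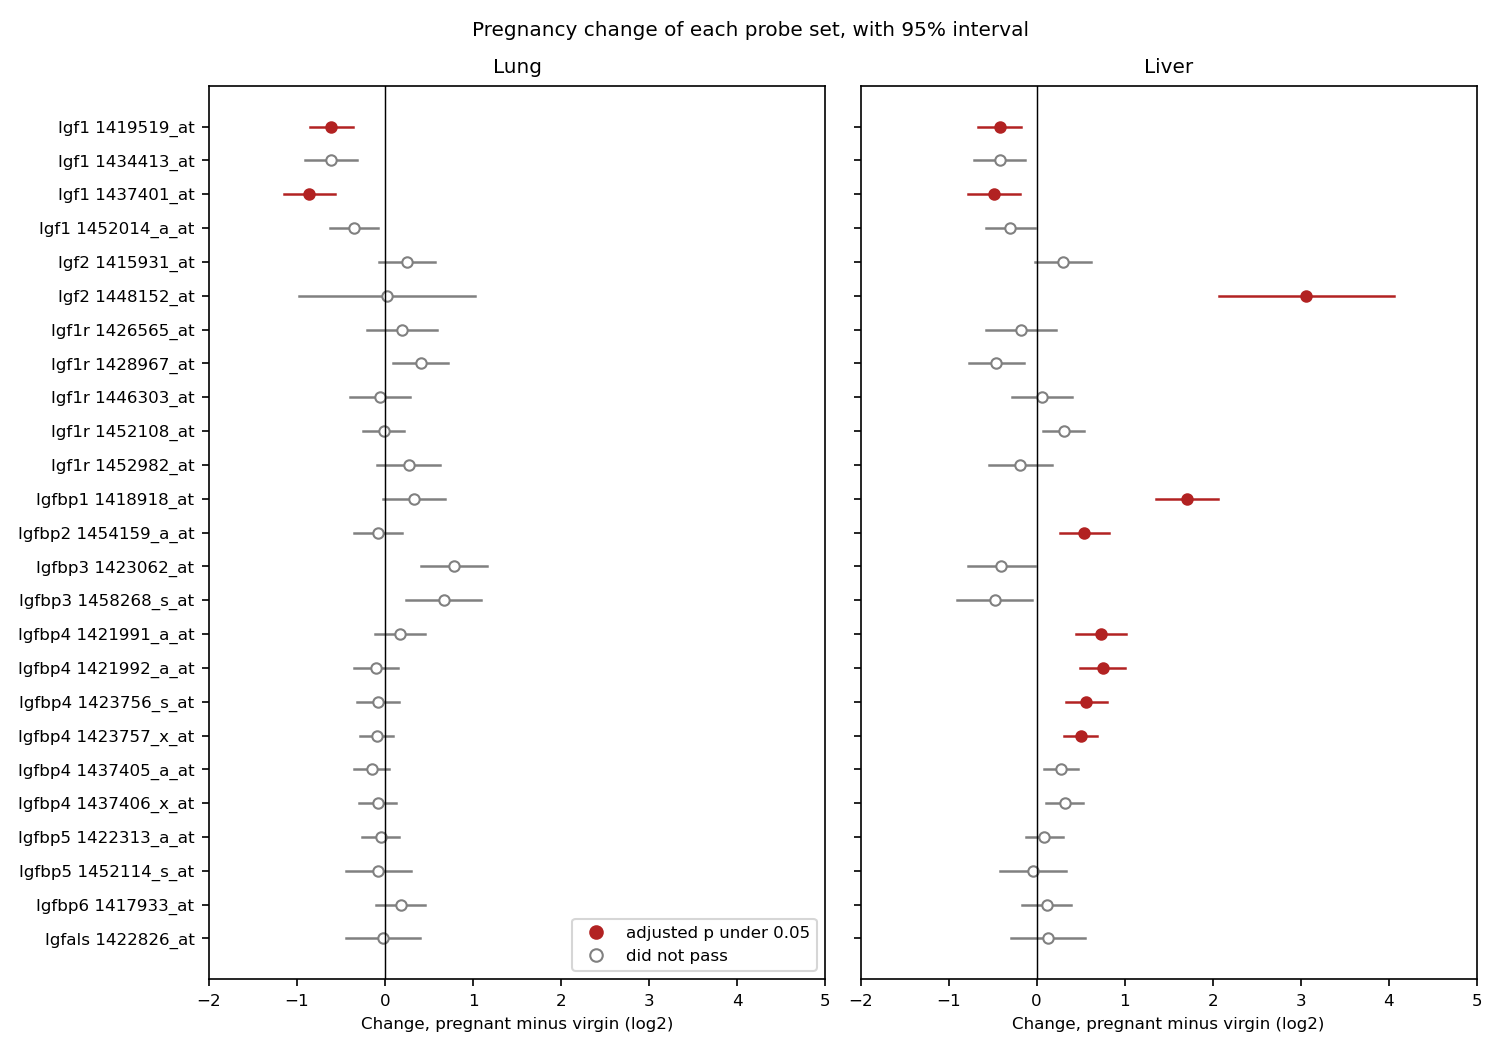
Log2 difference of pregnant minus virgin (horizontal axis) for each of the 25 probe sets, in liver and in lung, with bars for the 95% confidence interval of the model and filled points for probe sets called at an adjusted p under 0.05. Igf2 (3.06) and Igfbp1 (1.71) lie farthest right in liver, and the filled lung points are 2 Igf1 probe sets at -0.61 and -0.86.

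Igf2, the ligand of fetal growth, showed the largest change of the family. Its probe set 1448152_at was at 9.63, 6.63 and 8.48 in pregnant liver pools 1 to 3, against 5.16, 5.16 and 5.22 in virgin liver. Every pregnant pool was above every virgin pool, and the pregnant pools spread over 3 log2 units while the virgin pools lay within 0.1 of each other. The difference was 3.06 ± 0.47 (SE, n = 3), an 8.36-fold rise with an adjusted p of 0.000593 by limma. The SD was 1.51 in pregnant liver, 0.04 in virgin liver, 0.12 in pregnant lung and 0.09 in virgin lung. The model shares 1 spread per probe set among all groups, so this SE and p understate the spread of the pregnant liver pools. It was 2.97 within pools 1 and 2 (adjusted p = 0.0134) and 3.25 within pool 3. Without pregnant pool 1 it was 2.37 (adjusted p = 0.000648) and without pregnant pool 2 it was 3.87 (adjusted p = 1.23e-07). In these bulk samples, more or fewer cells of a type and more or less RNA per cell cannot be told apart.

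In lung the same Igf2 probe set was at 6.10, 5.95 and 5.86 in pregnant pools and at 5.92, 5.87 and 6.04 in virgin pools. The groups overlapped, and the difference was 0.02, with a 95% interval of -0.97 to 1.02, wide because the model shares 1 spread per probe set among all groups. The lung change minus the liver change was -3.04 ± 0.66 (SE, adjusted p = 0.0171), and that call was lost without virgin lung pool 3 (adjusted p = 0.0508) and without both liver pools 3 (-2.94, adjusted p = 0.075), and with a variance trend and robust moderation (adjusted p = 0.107). The other Igf2 probe set, 1415931_at, was dim, at 2.37 to 3.51 on all 12 arrays, below the median level. Its liver difference was 0.30 (adjusted p = 0.265) with overlapping groups, and 0.53 within pools 1 and 2 but -0.15 within pool 3. The called rise of Igf2 thus rests on 1 of its 2 probe sets.

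**Figure D2:**
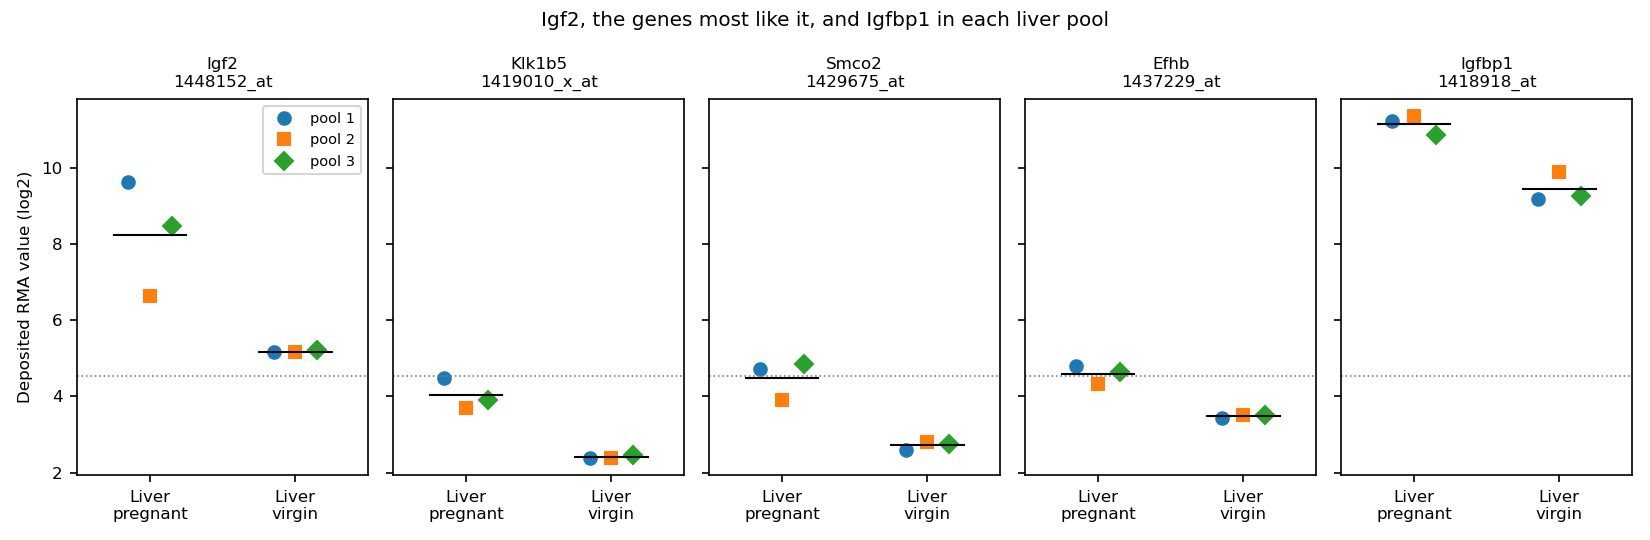
Deposited log2 value (vertical axis) of pools 1 to 3 in pregnant and virgin liver (horizontal axis) for Igf2 1448152_at, the 3 genes most like it (Klk1b5, Smco2 and Efhb) and Igfbp1, 1 panel per probe set, with a line at the group mean and a dotted line at the median level of 4.53. The pregnant liver pools of Igf2 lie at 9.63, 6.63 and 8.48, apart from each other, while the virgin liver pools lie at 5.16 to 5.22.

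Markers of fetal tissue and placenta, both of which express Igf2, were read beside it. A list of fetal and embryonic genes was chosen after the values were seen. It held Afp, Dlk1 and the embryonic globin genes Hbb-y, Hbb-bh1 and Hba-x, and 0 of these 5 measured members were called in liver. Of all genes 11.1% were called there, so 0 calls in so short a list does not set it apart. The list's mean level was 4.41 to 4.54 in pregnant and 4.46 to 4.60 in virgin liver. These means lie near the median level of 4.53, so the list is not shown to be above background. Afp, the main fetal serum protein, was -0.19 (adjusted p = 0.624), or -0.33 within pools 1 and 2 and 0.08 within pool 3. Of the trophoblast and decidua list 0 of 4 measured genes were called in liver, beside the same 11.1% of all genes. Its mean level was 3.10 to 3.18 in pregnant and 2.99 to 3.28 in virgin liver, below the median level. In lung 1 of these 4, the placental prolactin gene Prl8a2, rose by 2.68 on the log2 scale, beside 0.33% of all genes called. Igf2 differed by 0.02 in lung. The part of fetal or placental cells in the Igf2 values was not tested. The genes whose values followed Igf2 most closely over the 12 arrays, after each tissue's mean was removed, were Klk1b5 (Pearson r = 0.957), a kallikrein-related peptidase gene, Smco2 (0.955) and Efhb (0.949). All of these correlations run over the same arrays and describe likeness only. Klk1b5 had 4.48, 3.70 and 3.91 in pregnant liver against 2.39, 2.39 and 2.47 in virgin liver, below the median level throughout. Smco2 had 4.73, 3.91 and 4.85 in pregnant liver, and Efhb had 4.80, 4.34 and 4.64. Both were above the median level only in pregnant liver pools 1 and 3, so their other values are not shown to be above background.

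Igf1, the growth hormone-driven ligand, was lower in pregnancy in both tissues on all 4 of its probe sets, but 2 of the 4 passed the test in each tissue. Probe set 1437401_at was at 11.66, 11.67 and 11.53 in pregnant liver against 12.18, 12.06 and 12.09 in virgin liver, a difference of -0.49 ± 0.14 (SE, adjusted p = 0.0406). In lung it was at 7.16, 6.76 and 7.32 in pregnant pools against 7.79, 8.15 and 7.88 in virgin pools, a difference of -0.86 ± 0.14 (SE, 1.82-fold lower, adjusted p = 0.0164). In both tissues every pregnant pool lay below every virgin pool. Probe set 1419519_at had 10.43, 10.49 and 10.20 in pregnant liver against 10.88, 10.77 and 10.73 in virgin liver (-0.42, adjusted p = 0.0342). In lung it had 5.77, 5.79 and 5.88 in pregnant pools against 6.57, 6.50 and 6.22 in virgin pools (-0.61, adjusted p = 0.0438). Here too the groups did not overlap in either tissue.

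Probe set 1452014_a_at of Igf1 had a difference of -0.30 in liver (adjusted p = 0.196), without overlap, and of -0.35 in lung (adjusted p = 0.449), where the groups overlapped. For 1434413_at the differences were -0.42 in liver (adjusted p = 0.078) and -0.61 in lung (adjusted p = 0.102), with no overlap in either tissue. The lung change minus the liver change lay between -0.38 and -0.05 over the 4 probe sets and was not called for any (adjusted p of 0.396 to 0.936). The liver call of 1419519_at was lost when any 1 of virgin liver pools 1, 2 and 3 or pregnant liver pools 1 and 3 was left out (adjusted p of 0.057 to 0.116). That of 1437401_at was lost without any 1 of the 6 liver arrays, virgin lung pool 3 or pregnant lung pool 1 (0.0524 to 0.121). In lung the call of 1437401_at was lost without virgin lung pools 2 or 3 or pregnant lung pools 1 or 2, each left out alone (0.0509 to 0.104). The lung call of 1419519_at was lost without any 1 of 9 arrays, all but virgin lung pool 3 and pregnant liver pools 2 and 3 (0.0521 to 0.195). Without both liver pools 3 the liver calls of 1419519_at (-0.36, adjusted p = 0.125) and 1437401_at (-0.45, adjusted p = 0.157) were lost. Quantile normalization, whether across the 12 arrays or inside each tissue, ended both liver calls (adjusted p of 0.0575 to 0.0747) and the lung call of 1419519_at (0.0564 and 0.0658). A fit on lung arrays alone ended both lung calls (0.0735 and 0.0738), and one on liver arrays alone ended the liver call of 1419519_at (0.0918). Array weights ended both liver calls (0.0724 and 0.111), and the pool number as a block ended that of 1437401_at (0.0647). With a variance trend 1434413_at was called in liver (0.0283) and in lung (0.0203). It was also called in liver without dim probe sets and without pregnant lung pool 2. In lung it was also called with array weights and without pregnant lung pool 3. With its probe sets averaged, Igf1 was called in both tissues. The sign was the same in each of these fits.

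Igf1r, the receptor of both ligands, had no probe set called for pregnancy in either tissue by the fit over all 12 arrays. Its representative, 1452982_at, was at 5.33, 4.59 and 4.83 in pregnant liver and 5.22, 5.11 and 4.98 in virgin liver, and at 8.44, 8.18 and 8.15 in pregnant lung and 8.24, 7.81 and 7.92 in virgin lung. The states overlapped in both tissues. Probe set 1428967_at was at 4.20, 3.85 and 3.83 in pregnant liver against 4.44, 4.58 and 4.22 in virgin liver (-0.46, adjusted p = 0.0705, but 0.0261 with the pool number as a block, 0.0434 without dim probe sets and 0.0351 without pregnant liver pool 1), below the median level in 5 of the 6 liver pools. In lung it was at 7.53, 7.34 and 7.09 in pregnant against 6.95, 7.07 and 6.71 in virgin pools (0.40, adjusted p = 0.431). Neither change passed, but their difference did, at 0.86 ± 0.21 (SE, adjusted p = 0.0308). That call was lost when virgin lung pools 1 or 3, pregnant lung pools 1 or 2, virgin liver pools 1 or 2, or pregnant liver pools 2 or 3 were left out, each alone (adjusted p of 0.0591 to 0.0897), and without both liver pools 3 (0.051). The other probe sets, 1426565_at, 1446303_at and 1452108_at, had differences between -0.18 and 0.31 in liver and between -0.06 and 0.20 in lung. For 1426565_at the liver difference was 0.07 within pools 1 and 2 and -0.67 within pool 3, and for 1446303_at it was 0.29 within pools 1 and 2 and -0.40 within pool 3. For 1452108_at, at 3.99 to 4.70 on all 12 arrays and so near or below the median level, it was 0.40 within pools 1 and 2 and 0.12 within pool 3.

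Igfbp1, the insulin-repressed binding protein of liver, rose by 1.71 ± 0.17 on the log2 scale in pregnant liver (SE, n = 3, 3.27-fold, adjusted p = 8.59e-06). Its probe set 1418918_at had 11.23, 11.36 and 10.87 in pregnant liver against 9.18, 9.89 and 9.27 in virgin liver. Every pregnant pool was above every virgin pool. The difference was 1.76 within pools 1 and 2 (adjusted p = 0.000109) and 1.60 within pool 3. In lung the values were 2.64, 2.54 and 2.59 in pregnant pools and 2.33, 2.13 and 2.32 in virgin pools (0.33, adjusted p = 0.738), far below the median level, so the lung signal is not shown to be above background. The lung change minus the liver change was -1.38 ± 0.24 (SE, adjusted p = 0.00336), with that limit on its lung side.

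Igfbp2, a binding protein made by liver and other tissues, had 12.05, 11.76 and 11.69 in pregnant liver against 11.26, 11.25 and 11.36 in virgin liver. The groups did not overlap, and the difference was 0.54 ± 0.13 (SE, 1.46-fold, adjusted p = 0.0161), 0.65 within pools 1 and 2 (adjusted p = 0.0275) and 0.33 within pool 3. The call was lost without virgin liver pool 1, virgin liver pool 2 or pregnant liver pool 1, each left out alone (adjusted p of 0.0537 to 0.0714). In lung Igfbp2 had 11.35, 10.96 and 11.45 in pregnant pools and 11.29, 11.35 and 11.36 in virgin pools (-0.08, adjusted p = 0.993), and these overlapped. The difference between the tissues' changes, -0.62, did not pass (adjusted p = 0.0855), though it did with a variance trend (0.0208) and without dim probe sets (0.0462).

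Igfbp4, a binding protein that inhibits IGF action until it is cleaved by the protease PAPP-A, was higher in every pregnant than in every virgin liver pool on all 6 probe sets, and 4 of the 6 were called. Probe set 1421992_a_at had 10.70, 10.58 and 10.76 in pregnant liver against 9.80, 10.07 and 9.90 in virgin liver (0.75 ± 0.12 SE, 1.68-fold, adjusted p = 0.00083). Probe set 1421991_a_at had 9.12, 8.97 and 9.33 in pregnant liver against 8.22, 8.60 and 8.40 in virgin liver (0.73, adjusted p = 0.00248). For both, every pregnant pool was clear of the virgin pools. Probe set 1423756_s_at had 12.61, 12.51 and 12.70 in pregnant against 11.96, 12.10 and 12.06 in virgin liver (0.57, adjusted p = 0.00453), and 1423757_x_at had 11.41, 11.39 and 11.47 in pregnant against 10.83, 10.99 and 10.94 in virgin liver (0.50, adjusted p = 0.00211). The remaining 2 did not pass. Probe set 1437405_a_at had 13.16, 13.12 and 13.17 in pregnant against 12.86, 12.80 and 12.96 in virgin liver (0.28, adjusted p = 0.0864), and 1437406_x_at had 12.50, 12.43 and 12.54 in pregnant against 12.14, 12.06 and 12.32 in virgin liver (0.32, adjusted p = 0.0594). Both passed with a variance trend (0.00554 and 0.00501) and without dim probe sets (0.033 and 0.0235). Within pools 1 and 2 the 4 called probe sets differed by 0.49 to 0.70 and were called as well (adjusted p of 0.0149 to 0.0373).

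All 6 Igfbp4 probe sets carry a suffix (_a, _s or _x) that marks probes shared between transcripts or sequences. They are annotated to 1 gene and are not 6 separate results. Whether their probes overlap or match other genes was not tested. In lung their differences lay between -0.15 and 0.17, and none was called (adjusted p of 0.832 to 0.988). The lung change minus the liver change was called for 3 of the 6, at -0.85 for 1421992_a_at (adjusted p = 0.00927), -0.65 for 1423756_s_at (adjusted p = 0.0338) and -0.60 for 1423757_x_at (adjusted p = 0.0141). The call of 1423756_s_at was lost when any 1 of virgin lung pool 1, pregnant lung pools 2 and 3, virgin liver pools 1, 2 and 3 and pregnant liver pools 1 and 3 was left out (adjusted p of 0.0516 to 0.0844), without both liver pools 3 (0.0916) and with arrays centred on their medians (0.0536).

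Igfbp3, the main carrier of IGF in blood, which in rat liver comes from cells other than hepatocytes, differed from virgin mice in opposite directions in the tissues. The test of that difference passed in the main fit over all 12 arrays, where neither change alone passed. Its probe set 1423062_at had 9.34, 8.74 and 9.39 in pregnant lung against 8.56, 8.04 and 8.54 in virgin lung (0.78 ± 0.18 SE, adjusted p = 0.105). That lung change was called with the pool number as a block (0.0332), with a variance trend (0.0475), with array weights (0.0344) and without pregnant lung pool 2 (0.036). In liver it had 7.21, 7.24 and 7.56 in pregnant pools against 7.69, 7.67 and 7.84 in virgin pools (-0.40, adjusted p = 0.206). The states did not overlap in either tissue, and pool 2 was the lowest lung pool in both states. The lung change minus the liver change was 1.18 ± 0.25 (SE, adjusted p = 0.0144), and 1.24 without both liver pools 3 (adjusted p = 0.0316). The second probe set, 1458268_s_at, had 9.08, 8.69 and 9.05 in pregnant lung against 8.51, 7.79 and 8.53 in virgin lung (0.67, adjusted p = 0.282). In liver it had 7.03, 7.05 and 7.34 in pregnant against 7.30, 7.61 and 7.95 in virgin pools (-0.48, adjusted p = 0.177), which overlapped. Its difference between tissues was 1.14 (adjusted p = 0.0362), a call lost without virgin lung pool 2, pregnant lung pools 1 or 3, virgin liver pools 2 or 3, or pregnant liver pools 1 or 2, each left out alone (0.0711 to 0.0938), or without both liver pools 3 (0.0724).

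Markers of the cells that could carry Igfbp3 or Igf1 were set beside them. Of 7 sinusoidal endothelium markers 0 were called in liver, where 11.1% of all genes were called. Their mean level was 8.65 to 8.78 in pregnant and 8.69 to 8.75 in virgin liver. Of 8 stellate cell markers 2 fell, where 6.22% of all genes were called lower, and 6 did not pass, with a mean level of 7.16 to 7.28 in pregnant and 7.48 to 7.55 in virgin liver. They were Lrat, which esterifies retinol (-1.45), and Ecm1 (-0.64). Of 6 Kupffer cell markers 1 fell, Timd4 (-0.64), against the same share of all genes, with a mean of 8.25 to 8.71 in pregnant and 8.63 to 8.81 in virgin liver. In lung 0 of 7 endothelial, 0 of 7 fibroblast and 0 of 7 smooth muscle and pericyte markers were called, beside 0.33% of all genes. The lung endothelial mean was 10.7 in each pregnant pool and 10.4 to 10.6 in virgin pools, and the fibroblast mean was 9.73 to 10.1 in pregnant and 9.97 to 10.3 in virgin pools. The smooth muscle and pericyte mean was 8.79 to 8.98 in pregnant and 8.59 to 8.83 in virgin pools. Of the 8 stellate markers 0 rose, 1 fell and 7 did not pass in lung, where 0.33% of all genes were called, and the median difference was 0.14. The one that fell was Lrat, with a mean of 7.96 in pregnant against 9.46 in virgin lung. The list's mean level was 5.86 to 5.92 in pregnant and 6.01 to 6.04 in virgin lung. The part of these cells in the Igfbp3 and Igf1 values was not tested.

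Igfbp5, Igfbp6 and Igfals had no pregnancy change called in either tissue. Igfbp6, which prefers IGF2, had 6.08, 6.01 and 5.82 in pregnant liver and 5.90, 5.54 and 6.13 in virgin liver (0.11, adjusted p = 0.693), a difference of 0.32 within pools 1 and 2 and of -0.31 within pool 3. In lung it had 11.44, 11.45 and 11.44 in pregnant pools against 11.34, 11.17 and 11.30 in virgin pools, without overlap but with a difference of 0.18 that did not pass (adjusted p = 0.91). Igfals, the acid-labile subunit, had 9.06, 9.14 and 9.20 in pregnant liver and 8.92, 9.11 and 8.98 in virgin liver. Its difference was 0.13 with a 95% interval of -0.29 to 0.55. In lung Igfals was at 3.94 to 4.13 in pregnant and 3.44 to 4.51 in virgin pools, below the median level. Igfbp5 1452114_s_at had 6.63, 6.92 and 6.76 in pregnant and 7.10, 6.31 and 7.02 in virgin liver (-0.04, adjusted p = 0.935), or 0.07 within pools 1 and 2 and -0.26 within pool 3. In lung it had 10.89, 10.89 and 11.25 in pregnant and 11.08, 10.99 and 11.18 in virgin pools (-0.07, adjusted p = 0.995). Its second probe set, 1422313_a_at, lay at 5.20 to 5.50 on all 12 arrays.

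Levels of most of the family differed between lung and liver. Between virgin lung and virgin liver 20 of 25 probe sets were called, 7 higher and 13 lower in lung, or 80% against 55.9% of all probe sets, of which 26.2% were higher and 29.7% lower. Between pregnant lung and pregnant liver 23 were called, 7 higher and 16 lower in lung, or 92% against 59.7% of all, of which 26.5% were higher and 33.2% lower. Higher in lung in both states were Igfbp6, Igfbp5 1452114_s_at, both Igfbp3 probe sets and 3 of the 5 Igf1r probe sets. Lower in lung in both states were all 4 Igf1 probe sets, all 6 of Igfbp4, Igfbp1, Igfals and the dim Igf2 probe set.

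Igfbp6 had the largest difference in favour of lung, with means of 11.45 ± 0.01 in pregnant lung and 5.97 ± 0.13 in pregnant liver, and 11.27 ± 0.09 in virgin lung and 5.86 ± 0.30 in virgin liver (SD, n = 3 each). The difference was 5.48 in pregnant and 5.41 in virgin mice (42.7-fold in virgin mice, adjusted p = 1.76e-14). Igfbp5 1452114_s_at was 4.27 higher in virgin lung than in virgin liver. For Igfbp1 and Igfals only levels are given, since their lung level is not shown to be above background. Igfbp1 averaged 2.59 ± 0.05 in pregnant lung and 11.15 ± 0.26 in pregnant liver, and 2.26 ± 0.11 in virgin lung and 9.45 ± 0.39 in virgin liver (SD, n = 3 each). Igfals lay at 3.94 to 4.13 in pregnant lung and 9.06 to 9.20 in pregnant liver, and at 3.44 to 4.51 in virgin lung and 8.92 to 9.11 in virgin liver. Igf1 1452014_a_at differed by -6.17 between pregnant lung and pregnant liver and by -6.12 between virgin lung and virgin liver.

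Igf2 1448152_at, Igfbp2 and Igf1r 1452108_at differed between the pregnant tissues and did not pass between the virgin ones. Igf2 1448152_at differed by -2.28 between pregnant lung and pregnant liver (adjusted p = 0.000655) and by 0.76 between virgin lung and virgin liver (adjusted p = 0.179). Every virgin lung pool lay above every virgin liver pool (SD 0.09 and 0.04). That test used the spread shared among all groups, which includes the scattered pregnant liver pools. Igfbp2 differed by -0.58 between pregnant lung and pregnant liver (adjusted p = 0.00128) and by 0.05 between virgin lung and virgin liver (adjusted p = 0.783). Igf1r 1452108_at, near or below the median level, differed by -0.43 between pregnant lung and pregnant liver (adjusted p = 0.00307) and by -0.11 between virgin lung and virgin liver (adjusted p = 0.413), lower in lung where 3 other Igf1r probe sets were higher. As given above, the test of the difference between these tissue contrasts passed for Igf2 and, in the fit over all arrays, not for Igfbp2. Ordered by its 4 group means, Igf2 ran pregnant liver, pregnant lung, virgin lung and virgin liver. The last 3, at 5.97, 5.94 and 5.18, did not pass against each other in the comparisons made. The virgin lung and virgin liver pools of Igf2 did not overlap all the same. Igfbp2 ran pregnant liver, virgin lung, virgin liver and pregnant lung, and the last 3, at 11.33, 11.29 and 11.26, did not pass against each other in the comparisons made.

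**Figure D3:**
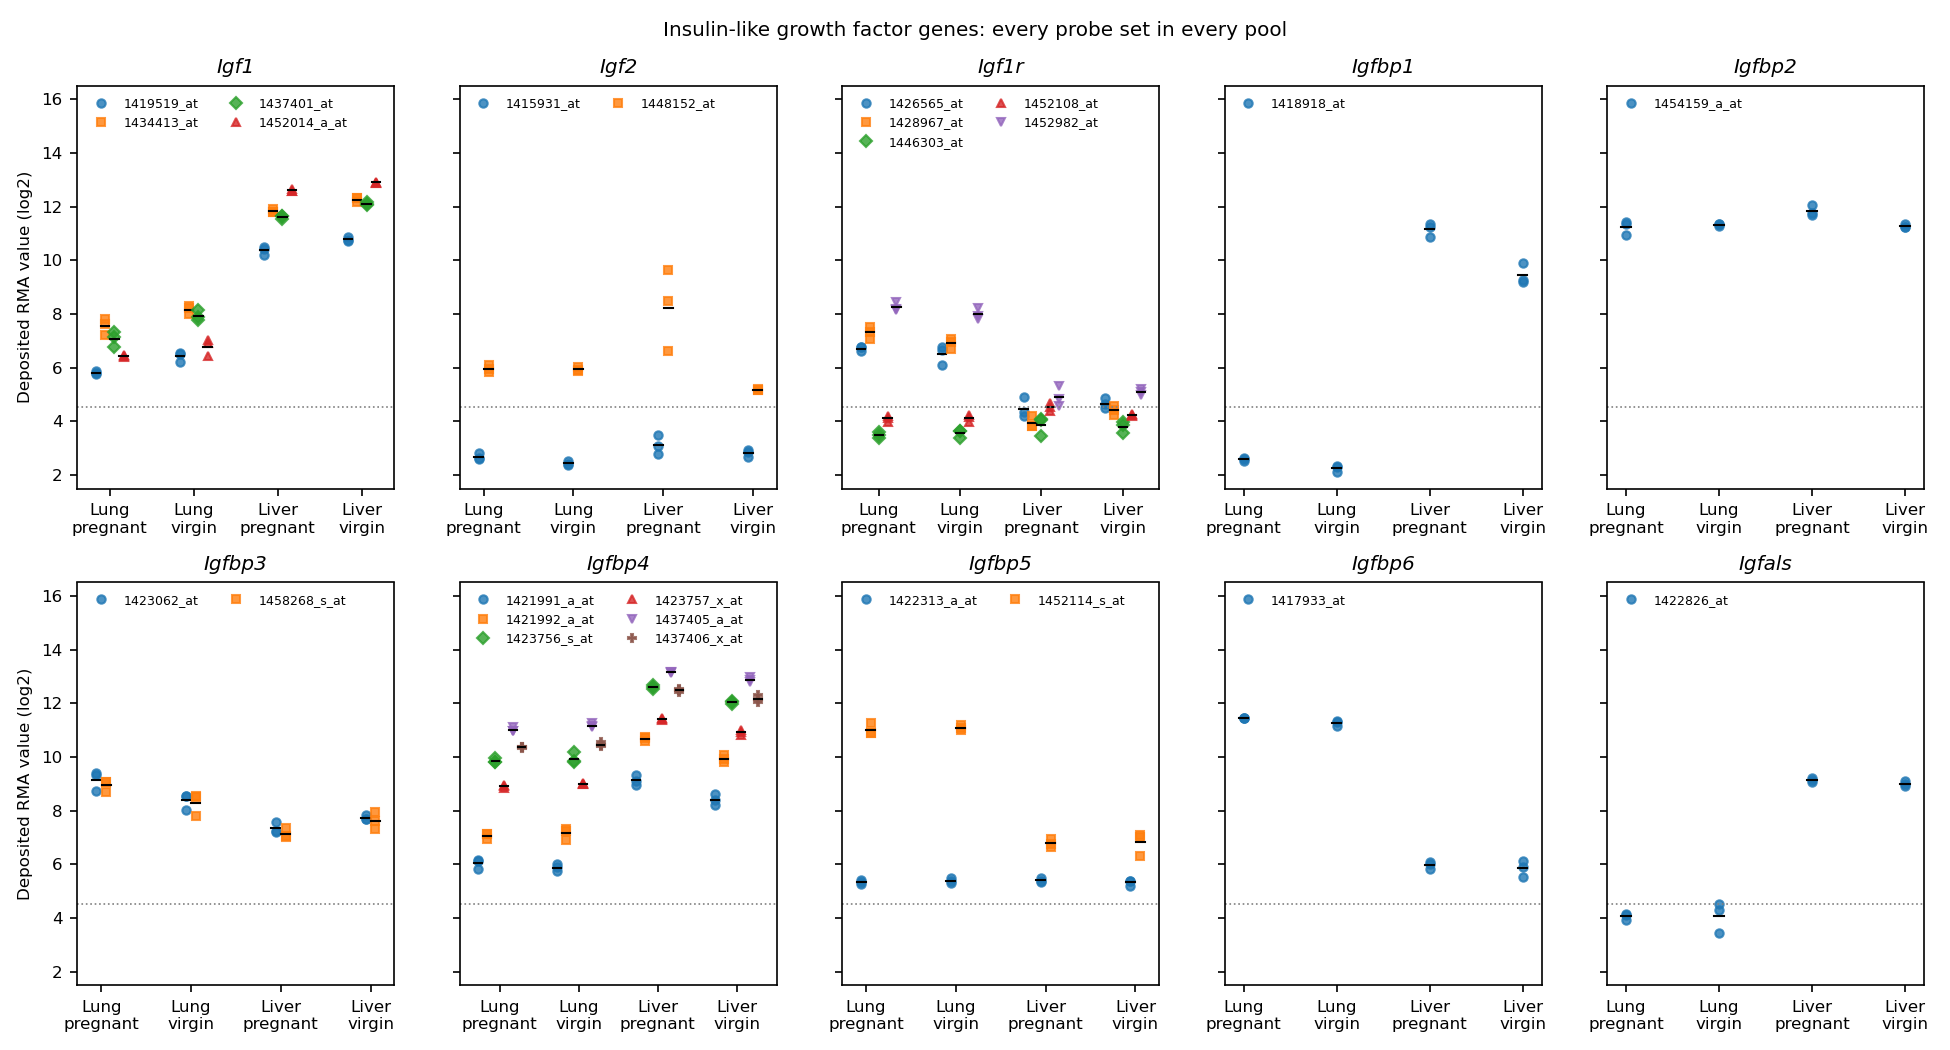
Deposited log2 value (vertical axis) of each of the 25 probe sets in pregnant lung, virgin lung, pregnant liver and virgin liver (horizontal axis), 1 panel per gene, with 1 point per pool, a colour and marker per probe set, a bar at the mean and a dotted line at the median level of 4.53. Igfbp6 and Igfbp5 1452114_s_at lie near 11 in lung and under 7.2 in liver, while Igf1, Igfbp1, Igfbp4 and Igfals lie higher in liver.

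Igfbp1 and Igfbp3 are neighbouring genes on chromosome 11 with 0 annotated genes between them, and Igfbp2 and Igfbp5 are such neighbours on chromosome 1, by the RefSeq annotation. In pregnant against virgin liver Igfbp1 rose by 1.71 on the log2 scale while Igfbp3 1423062_at differed by -0.40, and Igfbp2 rose by 0.54 while Igfbp5 1452114_s_at differed by -0.04.

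Genes around the IGF system were counted in lists of roles, each gene by its probe set of highest mean level. Of 61 measured genes in 7 lists, 0 were called in lung with limma, where 0.33% of all genes were called. In lung 12 of the 61 had an unadjusted p under 0.05 in limma. The share of all genes at that unadjusted threshold was not counted, so the 12 cannot be set against a background. In liver 9 of the 61 were called (7 higher and 2 lower), or 14.8% against 11.1% of all genes. Of 11 receptors and adaptors 3 rose, 1 fell and 7 did not pass in liver, where 4.92% of all genes were called higher and 6.22% lower. Insrr, the insulin receptor-related receptor, had 5.42, 5.32 and 5.46 in pregnant against 4.45, 4.23 and 4.76 in virgin liver (0.92, adjusted p = 0.00026). Its virgin liver pools 1 and 2 lay below the median level and are not shown to be above background. Irs2, an adaptor of the insulin and IGF1 receptors, rose by 0.61 on the log2 scale (adjusted p = 0.00802). Igf2r, the receptor that clears IGF2, rose by 0.58 on that scale, with 6.99, 7.17 and 7.23 in pregnant against 6.41, 6.81 and 6.43 in virgin liver (adjusted p = 0.0275). Its call was lost without virgin liver pools 1 or 3 or pregnant liver pools 2 or 3, each left out alone (0.0759 to 0.104), with array weights (0.0605) or without both liver pools 3 (0.174), and it differed by 0.47 within pools 1 and 2 and 0.80 within pool 3. Grb14, an inhibitor of insulin receptor signalling, fell by 0.48 on that scale (adjusted p = 0.0377), which was lost without any 1 of 8 arrays, all but pregnant lung pools 1 and 2, virgin lung pool 2 and pregnant liver pool 3 (0.0502 to 0.146). The Grb14 call was also lost with probe sets averaged per gene (-0.22, adjusted p = 0.181), with liver arrays alone (0.105) and with the pool number as a block (0.0511), and its difference was -0.58 within pools 1 and 2 and -0.27 within pool 3. In lung Igf2r, the list's gene of smallest p there, differed by 0.37 with overlapping groups (adjusted p = 0.554).

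Of 8 genes of the growth hormone and prolactin axis 2 rose and 6 did not pass in liver, where 4.92% of all genes were called higher. Ghr, the growth hormone receptor, had 13.17, 13.22 and 13.19 in pregnant liver against 12.18, 12.12 and 12.18 in virgin liver. The pools of each state lay within 0.1 of each other, and the difference was 1.03 ± 0.09 (SE, 2.04-fold, adjusted p = 3.18e-06). Cish, an inhibitor induced by STAT5, rose by 0.54 on the log2 scale (adjusted p = 0.0313), a call lost without virgin liver pool 2 or pregnant liver pools 1 or 2, each left out alone (0.0662 to 0.105), with liver arrays alone (0.129) and with array weights (0.0507). Its difference was 0.69 within pools 1 and 2, against 0.23 within pool 3. In lung Ghr differed by -0.33 (adjusted p = 0.225), and Socs3, the list's gene of smallest p there, by 0.51 (adjusted p = 0.182).

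Of 6 insulin response genes 1 fell in liver and 5 did not pass, beside 6.22% of all genes called lower. Srebf1, a regulator of fat synthesis induced by insulin, had 10.79, 10.97 and 10.74 in pregnant against 12.02, 11.99 and 12.24 in virgin liver (-1.25 ± 0.11 SE, 2.37-fold lower, adjusted p = 1.96e-06). In lung it had 9.67, 9.72 and 9.91 in pregnant against 10.21, 10.26 and 10.24 in virgin pools (-0.47, adjusted p = 0.104, and 0.00956 with a variance trend). Pregnant pools were lower than every virgin pool in both tissues. The PI3K, AKT and mTOR cascade acts below the receptors. Of its 15 measured genes 1 rose in liver and 14 did not pass, beside 4.92% of all genes called higher. The gene that rose was the kinase gene Mtor (0.47, adjusted p = 0.00584). Without both liver pools 3 Mtor differed by 0.38 and did not pass (adjusted p = 0.0593), nor did it with liver arrays alone (0.0501), and it differed by 0.65 within pool 3. In lung Pik3r3, the cascade's gene of smallest p there, differed by -0.25 (adjusted p = 0.807).

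Of 9 low-affinity binding proteins 1 rose in liver and 8 did not pass, beside 4.92% of all genes called higher. The gene that rose was Ccn1, a matrix protein gene (0.55, adjusted p = 0.0415). Its call was lost when any 1 of the 6 liver arrays, the 3 virgin lung arrays or pregnant lung pool 1 was left out (0.0525 to 0.12), without both liver pools 3 (0.207), with probe sets averaged per gene (0.385, adjusted p = 0.365), with arrays centred on their medians (0.0524) or with array weights (0.114). Its difference was 0.45 within pools 1 and 2, against 0.73 within pool 3. Of 10 genes of binding protein cleavage 0 were called in liver, where 11.1% of all genes were called. F2, which encodes prothrombin, had the smallest p there (0.44, adjusted p = 0.0696, and 0.0304 with a variance trend). Of 2 measured genes of proteins that bind Igf2 mRNA 0 were called in liver, beside the same 11.1% of all genes. Igf2bp3 differed by 0.07 in liver, or -0.02 within pools 1 and 2 and 0.26 within pool 3. In lung the smallest p of the low-affinity list was that of Ccn5, with 7.74, 7.93 and 8.30 in pregnant against 8.49, 8.59 and 8.90 in virgin pools (-0.67, adjusted p = 0.111, and 0.0431 with a variance trend). Htra1, a protease gene, differed by -0.33 in lung (adjusted p = 0.339), and Igf2bp1, of the Igf2 mRNA list, by 0.11 (adjusted p = 0.966).

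**Figure D4:**
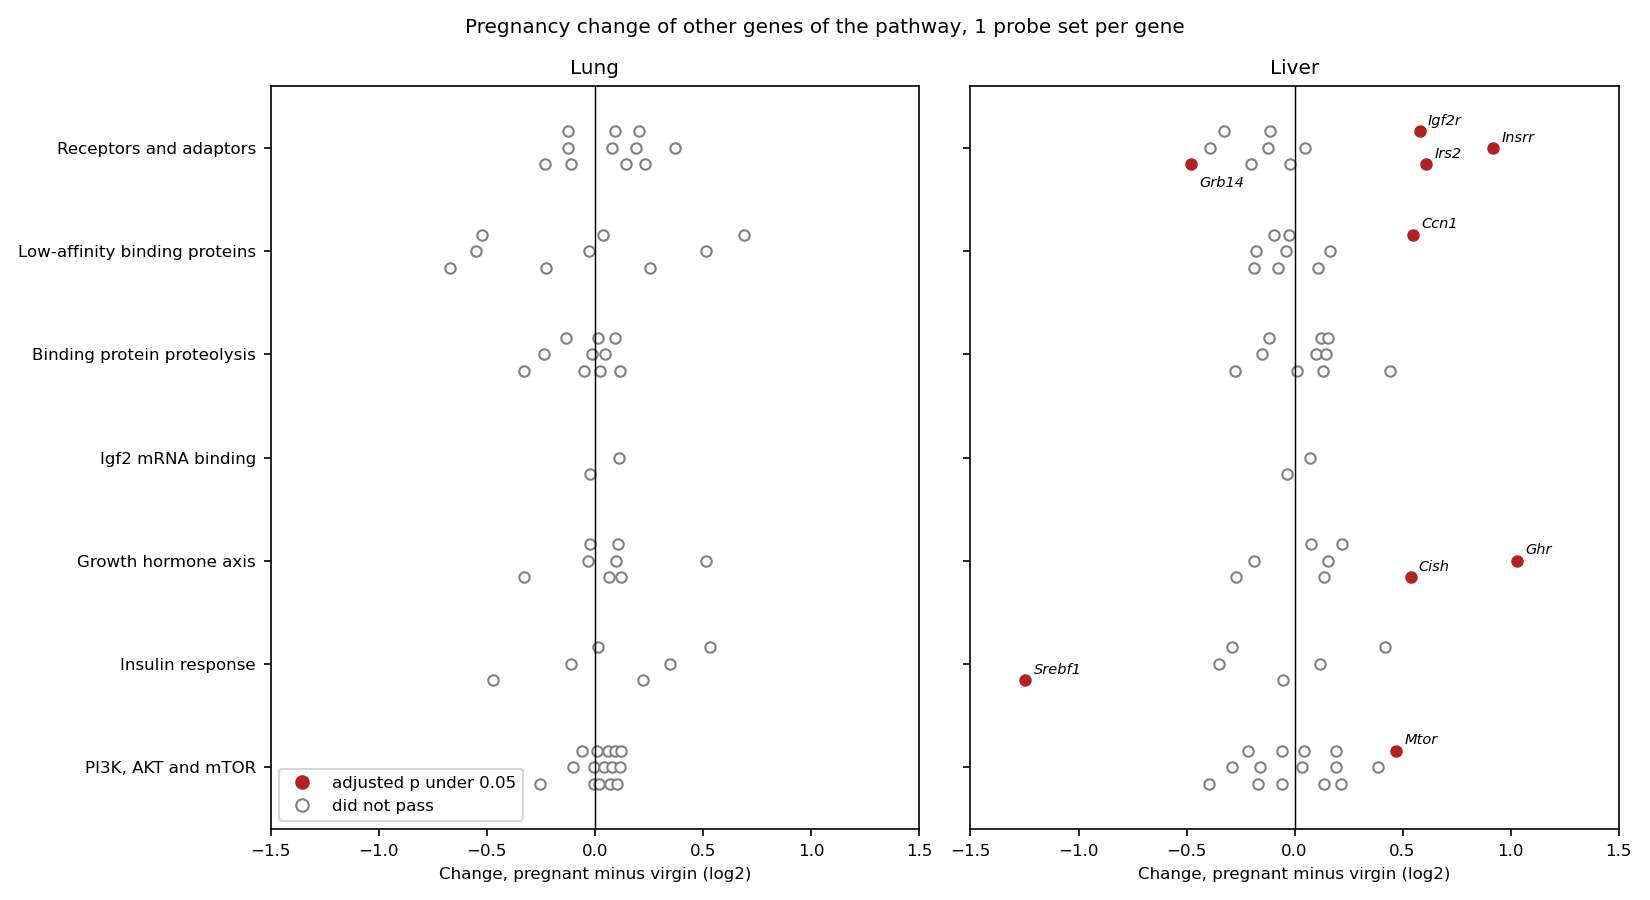
Log2 difference of pregnant minus virgin for the genes of the 7 lists around the IGF system (1 point per gene, 1 row per list), in liver and in lung, with filled points for called genes. In liver Ghr (1.03), Insrr (0.92) and Srebf1 (-1.25) lie farthest from 0, and no lung point is filled.

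The labelled tissues carried their own markers. All 8 hepatocyte markers were lower in virgin lung than in virgin liver, and their mean level was 4.03 to 4.62 in pregnant lung, 13.6 to 13.7 in pregnant liver, 3.91 to 4.13 in virgin lung and 13.5 to 13.6 in virgin liver. All 7 measured lung epithelium markers were higher in virgin lung than in virgin liver, with a mean level of 11.8 in each lung pool and 4.19 to 4.30 in liver pools. Of the hepatocyte markers 0 of 8 were called between pregnant and virgin liver, where 11.1% of all genes were called. Of 5 pancreatic acinar markers 1 fell in pregnant liver, where 6.22% of all genes were called lower. It was the elastase gene Cela1, by 1.35 on the log2 scale, and its part in the results above was not tested.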

How the data were processed

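Each deposited value is the log2 level of 1 probe set on 1 array, made by the authors with RMA of the affy package, per the submitters' processing notes. RMA subtracts a modelled background, brings the arrays to 1 distribution and fits a robust average over the probes of a set. Which arrays were normalized together is not given in the sources used here. RNA of 2 mice was pooled per array, and there were 3 arrays in each of 4 groups, which limits the precision. Detection calls and scanner files were not used here.

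After 64 control probe sets were left out, limma 3.58.1 in R 4.3.3 was fitted to the 45037 others with 4 group means over 12 arrays and empirical Bayes variances (residual degrees of freedom 8, prior 6.59), and p-values were adjusted by Benjamini-Hochberg over all probe sets. The threshold was an adjusted p under 0.05. Tested were pregnant minus virgin in each tissue, the lung change minus the liver change, and lung minus liver in each state. Every probe set of the 10 genes is reported. For counts of genes, each gene was taken by its probe set of highest mean value, for 18193 genes. Of each list around the pathway, up to 4 called genes with the largest change were named per tissue, or, if none was called, the 1 of smallest p. Also named were the 3 genes most like the member with the largest called change. Members of marker lists were named after their values were seen. The members and lists were chosen with earlier results of these data known.

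The alternatives were the mean of a gene's probe sets, a fit on 1 probe set per gene, probe sets without shared-sequence suffixes, the arrays of 1 tissue, a filter on dim probe sets (highest group mean under 5), centring, quantile normalization, a variance trend, array weights, the pool number or the liver spike-in batch as a block, a threshold of 0.01 and leaving out arrays. The fit was tested on simulated data over 45037 probe sets in the liver contrast. Changes were seeded in 200 of them, with no other differences and the same spread in each group. The share of seeded changes found was 26% at a log2 size of 0.5, 92% at 1, and 100% at both 2 and 3, with 12 false calls among 171. A larger share of probe sets was called in the liver data, so these shares check the fit and are not rates for these data. Promoter windows and motif matches came from RefSeq tables of GRCm38.p6.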

Additional observations from a re-analysis of the deposited data

Results flagged for a closer look

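For 8 probe sets the change with pregnancy differed between the tissues by the test of that difference (lung change minus liver change, log2, limma). For Igf2 1448152_at it was -3.04 (adjusted p = 0.0171), with pregnancy changes of 0.02 in lung and 3.06 in liver. For Igfbp1 1418918_at it was -1.38 (adjusted p = 0.00336), with changes of 0.33 in lung, where its level is not shown to be above background, and 1.71 in liver. Of Igfbp4, 3 probe sets, all annotated to that 1 gene, differed in the same direction. They were 1421992_a_at by -0.854 (adjusted p = 0.00927), 1423756_s_at by -0.647 (adjusted p = 0.0338) and 1423757_x_at by -0.597 (adjusted p = 0.0141). Both Igfbp3 probe sets differed the other way, 1423062_at by 1.18 (adjusted p = 0.0144) and 1458268_s_at by 1.14 (adjusted p = 0.0362). Igf1r 1428967_at differed by 0.862 (adjusted p = 0.0308), with changes of 0.40 in lung and -0.46 in liver, neither of which passed alone, and its liver level is not shown to be above background.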

How the results depend on the processing

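Over the alternatives, the 9 called liver probe sets kept their direction in all 217 values and stayed called in 188. The 2 called lung probe sets kept their direction in all 48 values and stayed called in 29, and the 8 called differences between tissues kept theirs in all 186 and stayed called in 150. The cause of lost calls was not tested.

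Called probe sets of the family in liver (9) were 4 without suffixed probe sets, which removes all of Igfbp4 and the 1 probe set of Igfbp2, and 6 to 10 when arrays were left out. Called genes of the family in liver (3) were 5 with probe sets averaged per gene, 5 without dim probe sets, 5 with a variance trend and 2 to 4 when arrays were left out. All called liver probe sets (3675) were 2449 without suffixed ones, 2025 with liver arrays alone, 1826 at 0.01 and 2652 to 3773 when arrays were left out.

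In lung the 2 called probe sets were 0 with lung arrays alone, 1 with each quantile normalization, 4 with a variance trend, 4 with array weights, 0 at 0.01 and 0 to 2 when arrays were left out. The 0 called genes were 1 with probe sets averaged per gene, 2 with a variance trend, 2 with array weights and 0 to 1 when arrays were left out. All 96 called lung probe sets were 154 without dim ones, 250 with a variance trend, 366 with array weights, 27 at 0.01 and 34 to 118 when arrays were left out.

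The 8 called differences between tissues were 4 without suffixed probe sets, 4 without both liver pools 3, 2 at 0.01 and 5 to 7 when arrays were left out. By genes (3) they were 5 without dim probe sets, 1 at 0.01 and 2 to 3 when arrays were left out. Over all probe sets (1542) they were 1007 without suffixed ones, 748 at 0.01 and 1107 to 1592 when arrays were left out. Between virgin tissues the 20 called were 11 without suffixed probe sets and 18 to 21 when arrays were left out. Between pregnant tissues the 23 called were 13 without suffixed ones and 22 to 24 when arrays were left out, and all 26898 were 17901 without dim ones and 23945 to 26953 when arrays were left out.

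Changes that were not called turned sign in liver for Igfbp5 1452114_s_at (0.0243 with probe sets averaged per gene, 0.0696 without both liver pools 3, -0.288 to 0.107 when arrays were left out), Igf2bp3 (-0.00693, -0.0208, and -0.0269 to 0.182) and Igf1r 1426565_at (0.0682 without both liver pools 3). They also did so when arrays were left out for Igf1r 1446303_at (-0.0585 to 0.263) and Igfbp6 (-0.0458 to 0.248). In lung they did so for Igf1r 1452108_at (0.00747 with array weights, -0.0873 to 0.0426 when arrays were left out) and Igfals (0.0731, and -0.343 to 0.193). Only leaving out arrays turned the lung sign of Igfbp4 1423756_s_at (-0.152 to 0.0342), Igf2 1448152_at (-0.0423 to 0.0807), Igf1r 1426565_at (-0.00905 to 0.321), Igfbp5 1422313_a_at (-0.102 to 0.00282), Igf1r 1446303_at (-0.144 to 0.00224) and Igfbp2 (-0.177 to 0.0651).

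With the pool number as a replicate block, called probe sets of the family were 9 in liver, 3 in lung and 8 for the difference, and called genes in lung were 1. In liver the block ended the call of Igf1 1437401_at (adjusted p = 0.0647) and gave one for Igf1r 1428967_at (0.0261), and the lung probe set and gene gained were Igfbp3 1423062_at (0.0332). Deviations of same-numbered pools correlated at -0.0832 to 0.114 between states, and not every pool correlated best with its own number, so the numbers are not shown to pair the samples. Dim probe sets, whose signal is not shown to exceed background, limit what can be said of Igf2 1415931_at, Igf1r 1446303_at and 1452108_at, Igf1r 1428967_at in liver, and Igfbp1 and Igfals in lung.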
